A study of Mus musculus with 12 samples.

Results

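The genes described here are 32 markers of macrophages, measured in whole mouse hearts on Agilent 1-colour arrays. They were chosen by name: a gene is included if a non-control probe of the array carries its symbol or an older synonym of it. All 32 had at least 1 probe (52 probes in all, of 41174 on the array) and all 32 had a probe that passed the filter on dim probes, among 18258 genes tested. Adgre1, Lyz2 and Lyve1 appear in the files under the older names Emr1, Lyzs and Xlkd1.

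The hearts came from 12 male mice on a C57BL/6 background. In cardioGRMRdKO mice, Cre recombinase under the αMHC promoter acts on floxed alleles of the glucocorticoid receptor (GR) and the mineralocorticoid receptor (MR). The dflox controls were littermates that carry both floxed genes without Cre. Both genotypes were sampled at the ages of 1 and 2 months, and each of the 4 groups has 3 hearts. The αMHC promoter drives Cre in cardiomyocytes, so the receptor genes of macrophages are not its target, and the series has no hearts with Cre alone. RNA was taken from the whole organ, and fewer cells of a type cannot be told apart from less RNA per cell in such samples.

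Macrophages are the most numerous immune cells of the healthy heart, where they take up dying cells and debris, sense infection and support conduction and repair. One population settles before birth, renews itself locally and carries the surface proteins encoded by Lyve1, Timd4 and Folr2. Another is replaced from blood monocytes, which enter tissues through the chemokine receptor encoded by Ccr2. Glucocorticoids are known to act on macrophages directly through GR.

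The array measures each gene through 60-base probes. The first 30 bases of the probe that represents each resident or recruited marker, and of that for Fcgr1, are given as they are printed on the array (5′ to 3′, from the scanner files, mouse build mm7), since the values of these 5 genes carry the comparisons. The probes lie at chr7:106765983-106766042 (Lyve1, minus strand), chr11:46800424-46800483 (Timd4, plus), chr7:97886503-97886562 (Folr2, minus), chr9:123827135-123827194 (Ccr2, plus) and chr3:96156859-96156905 (Fcgr1, minus). Exons and UTRs of that build were not used here.
Lyve1: cactttgtgtgcctttaacaaatacattat
Timd4: acttcttttcacattcaagtttctttaaag
Folr2: gtttgactcaacccagggcaatcccaatga
Ccr2: gaagcagggacagaattcttgctttgaaaa
Fcgr1: accctgaaactgtgggaccatggcatgcaa

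Levels are log2 signals less the array's 75th percentile, so 0 is the 75th percentile of the array, and differences are log2 differences between group means with the standard error (SE) from limma. A gene was called, and is said to have risen or fallen, at a Benjamini-Hochberg adjusted p under 0.05 over all 18258 genes, in a fit of 4 group means to all 12 arrays. The arrays lay on 3 slides. At 1 month all dflox arrays had outer places on their slides and all knockout arrays inner places, and there an effect of place cannot be told apart from one of genotype. Between 63.7% and 71.9% of transcript spots per array were well above background. The representing probe was well above background on every array for 30 of the 32 markers, and Lyz2 and Itgam each lacked 1 dflox spot at 1 month (replicates 2 and 1), marked as an outlier by the scanner software and left out of the fit.

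In knockout hearts the macrophage markers as a group stood slightly above those of dflox hearts at both ages. At 1 month 29 of 32 had a log2 difference above 0, with a median of 0.21, against 50.1% of all genes and a median of 0.00. At 2 months 28 of 32 were above 0, with a median of 0.20, against 39.5% of all genes and a median of −0.08. Averaged over the ages 28 of 32 were above 0, with a median of 0.22 (1.17-fold), against 40.8% and −0.05 over all genes.

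Few of these differences passed the test gene by gene. At 1 month limma called 0 of 32 markers, where 0.948% of all genes were called, and at 2 months 0 of 32, where 2.23% were. Averaged over the ages 1 of 32 was called, Fcgr1, a share of 3.13% beside 4.37% of all genes. At an unadjusted p under 0.05 and higher in knockout hearts there were 7 markers at 1 month (4.44% of all genes), 6 at 2 months (6.01%) and 11 in the average (7.72%). As shares of the 32 these were 21.9%, 18.8% and 34.4%. Lower at that p were 0 markers in each of the 3 comparisons, where 4.86%, 9.12% and 9.55% of all genes were.

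Of the 30 markers with a value on every array, 8 were higher in all knockout hearts than in all dflox hearts at 1 month, where 8.8% of all genes were. At 2 months 9 were, where 7.06% of all genes were, and 5 were at both ages, where 2.91% of all genes were. These 5 were Aif1, Tyrobp, Fcgr1, Mrc1 and C1qc. Lower in all knockout hearts were 0 of the 30 at each age, where 9.27% of all genes were at 1 month and 10.1% at 2 months.

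**Figure D1:**
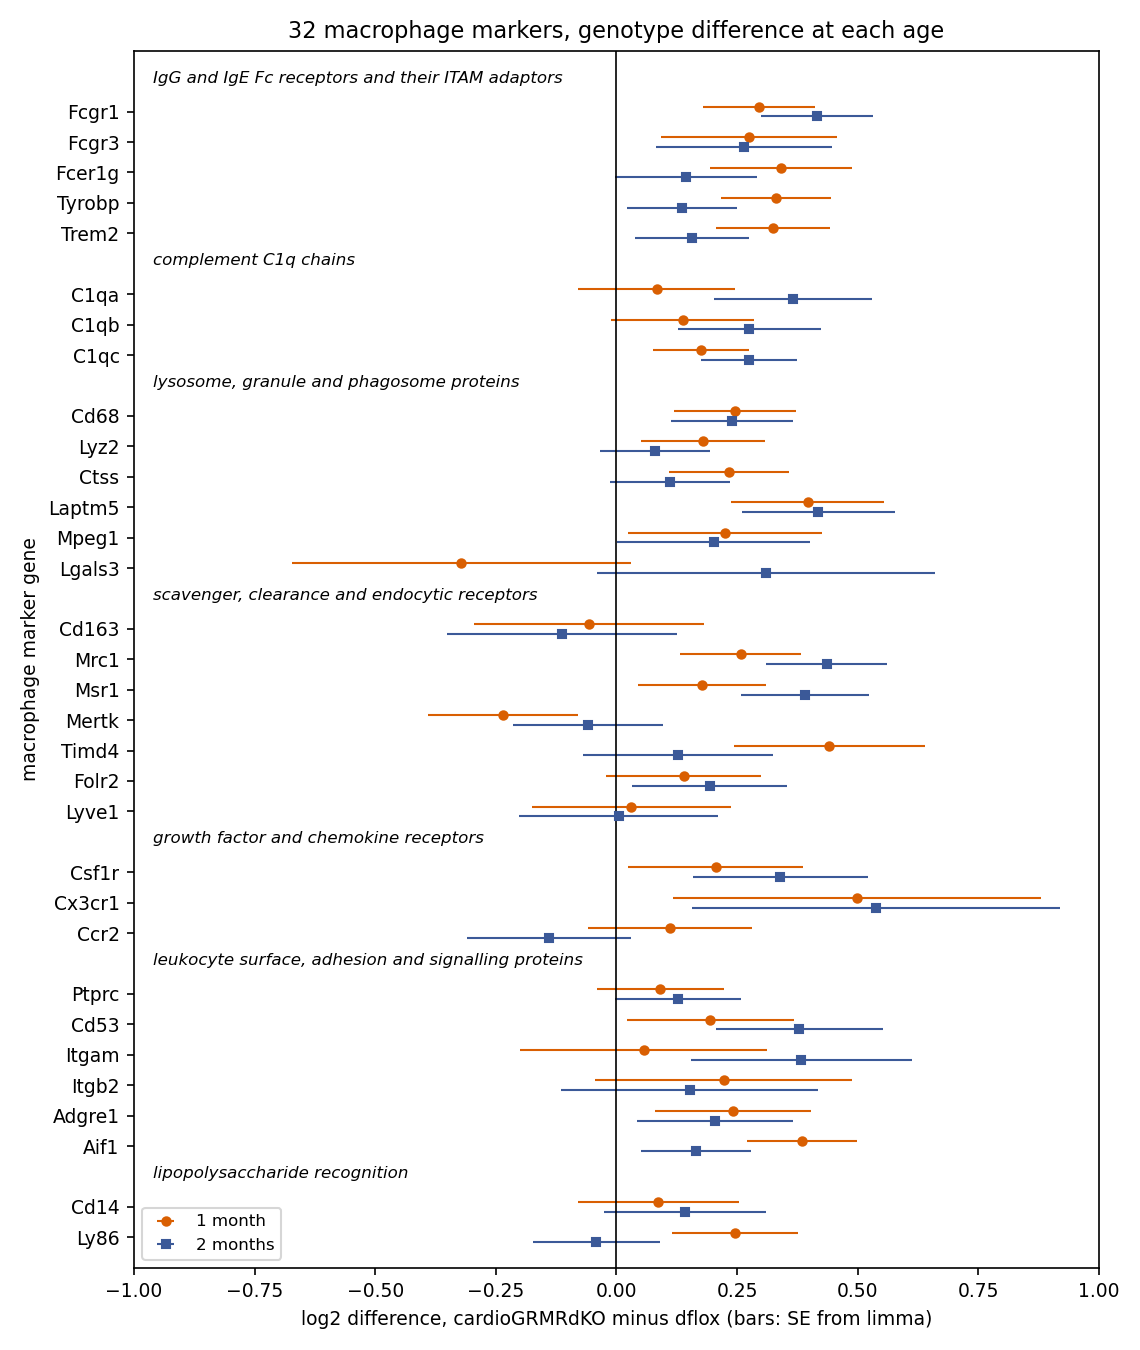
Log2 difference of cardioGRMRdKO minus dflox hearts (horizontal axis) for each of the 32 macrophage markers, grouped by role, at 1 month (circles) and 2 months (squares), with bars for the SE from limma, 3 hearts per group. Most points lie to the right of 0 by less than 0.5, 29 of 32 at 1 month and 28 of 32 at 2 months, and many bars reach 0.

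Per heart, the mean level of the 30 complete markers was 0.22, 0.46 and 0.49 in dflox and 0.55, 0.56 and 0.63 in knockout hearts at 1 month. At 2 months it was 0.32, 0.31 and 0.34 in dflox and 0.47, 0.47 and 0.64 in knockout hearts. The genotypes did not overlap at either age, but the 1-month dflox group was wide, and its replicate 1 was the lowest of its 3 hearts in 21 of 30 markers. Knockout replicate 3 at 2 months was the highest of its 3 in 18 of 30. Without dflox 1-month replicate 1 the median difference at 1 month was 0.15, and without knockout 2-month replicate 3 that at 2 months was 0.13.

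Within slides that held both genotypes the median over the markers was 0.31 on slide 1 and 0.18 on slide 2 at 1 month, and 0.34 on slide 1 and 0.11 on slide 3 at 2 months, each with 1 knockout heart. Above 0 were 31 of 31 and 24 of 31 markers at 1 month, and 28 of 32 and 24 of 32 at 2 months. Slide 1 had 1 dflox heart per age, and held dflox 1-month replicate 1 and knockout 2-month replicate 3. Cells from outside the heart muscle also varied between these samples. The mean level of 11 airway epithelium markers, such as Scgb1a1, the secretory protein of club cells, was 1.35, 2.52 and 2.45 in dflox hearts at 1 month against −1.49, −2.65 and −3.09 in knockout hearts. At 2 months it was −1.02, −2.99 and 2.78 in dflox and 2.52, −3.07 and 2.53 in knockout hearts, so the airway signal moved with genotype at 1 month and did not separate the genotypes at 2 months. Markers of alveolar macrophages, the macrophages of the lung, had a mean level from −2.09 to −1.75 in dflox and from −2.55 to −1.13 in knockout hearts at 1 month. With the airway level as a covariate, the median over the macrophage markers was 0.30 at 1 month and 0.18 at 2 months. The airway level did not overlap between the genotypes at 1 month, so there its effect cannot be told apart from that of genotype.

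**Figure D2:**
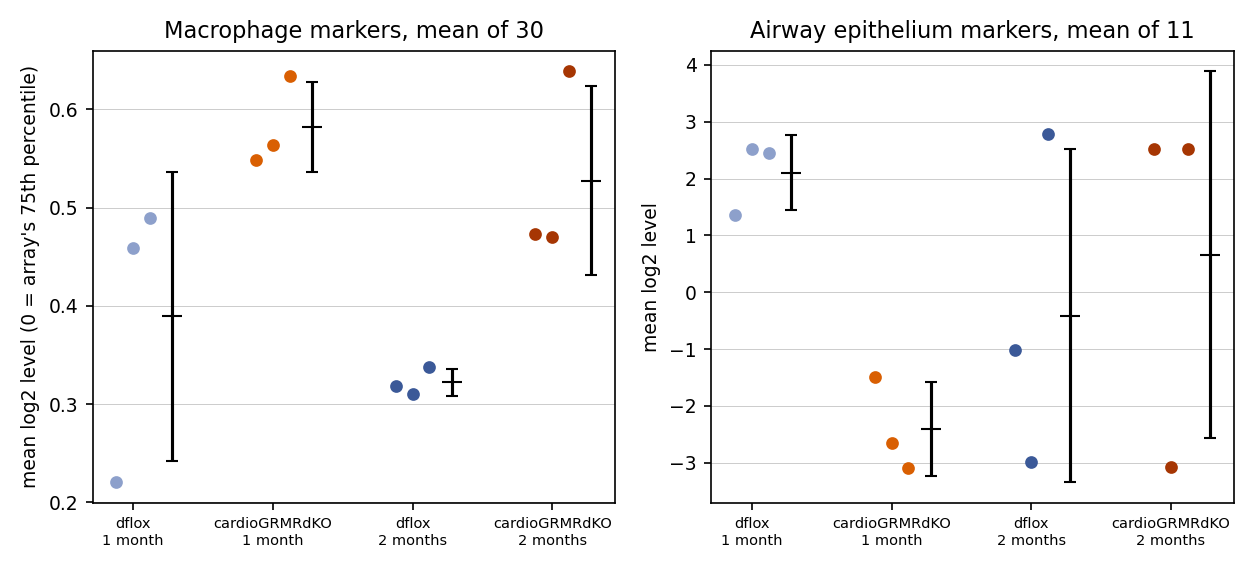
Mean log2 level per heart (points, 3 per group) of the 30 macrophage markers measured on all arrays (left) and of 11 airway epithelium markers (right), with the group mean and SD beside them. The macrophage mean lies between 0.47 and 0.64 in knockout and between 0.22 and 0.49 in dflox hearts, while the airway mean spans from −3.09 to 2.78 and is high in all 3 dflox hearts at 1 month.

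Fc receptors, through which macrophages bind antibody-coated particles, were grouped with the signalling adaptor genes Fcer1g and Tyrobp and with Trem2, which is not an Fc receptor. The group was above dflox levels in 5 of 5 at each age, with medians of 0.32 at 1 month and 0.16 at 2 months. Fcgr1 encodes CD64, the high-affinity IgG receptor that is widely used to tell macrophages from other myeloid cells. Its level was 0.41, 0.55 and 0.35 in dflox and 0.87, 0.64 and 0.69 in knockout hearts at 1 month. In the older mice it was 0.08, −0.11 and 0.19 in dflox and 0.54, 0.52 and 0.35 in knockout hearts. Each knockout heart was above each dflox heart of its age. The difference was 0.30 at 1 month (SE 0.12, adjusted p = 0.423) and 0.42 at 2 months (SE 0.12, adjusted p = 0.117), and averaged over the ages Fcgr1 rose by 0.36 (1.28-fold, SE 0.08, limma adjusted p = 0.0368).

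The second Fcgr1 probe, at chr3:96158425-96158488 (mm7), gave 0.28 at 1 month and 0.26 at 2 months. The call was narrow. It held without dflox 2-month replicate 3 (adjusted p = 0.0409) and without knockout 2-month replicate 3 (0.0317) and was lost without any other single heart, with adjusted p up to 0.0961. It held in 4 of 10 other settings. It was lost without a filter on dim probes (adjusted p = 0.101), with slide as a block (0.0542), with place as a covariate (0.376), with the airway level as a covariate (0.0567), with the replicate block (0.0713) and without slide 3. In these settings the difference stayed between 0.28 and 0.39. Slide 3 held 2 of the dflox hearts at 2 months, so the fit without it kept only 1 dflox heart of that age.

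Tyrobp encodes DAP12, the adaptor through which several myeloid receptors signal. It stood at 1.82, 2.05 and 1.76 in dflox and 2.14, 2.10 and 2.39 in knockout hearts at 1 month, and at 1.88, 1.87 and 1.81 against 2.02, 1.91 and 2.04 at 2 months. The genotypes did not overlap at either age, although neither difference passed (0.33, SE 0.11, adjusted p = 0.322; 0.14, SE 0.11, adjusted p = 0.573). Trem2, a lipid-sensing receptor that signals through DAP12, stood at 0.54, 0.52 and 0.35 in dflox and 0.82, 0.79 and 0.77 in knockout hearts at 1 month, a difference of 0.32 (SE 0.12, adjusted p = 0.362). At 2 months its levels overlapped, at 0.12, 0.35 and 0.34 against 0.28, 0.37 and 0.63. The other members of the group, Fcgr3, a low-affinity IgG receptor, and Fcer1g, the common Fc receptor γ chain, differed by 0.27 and 0.34 at 1 month and by 0.27 and 0.14 at 2 months, without passing.

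Several of these genes are also expressed by neutrophils and natural killer cells. The mean level of 10 neutrophil markers per heart ranged from −4.22 to −3.21 in dflox and from −4.73 to −1.93 in knockout hearts at 1 month, and from −4.74 to −1.97 and −2.88 to −2.31 at 2 months. The median difference was 0.63 at each age over the neutrophil markers, and 0.61 and 0.58 over 4 natural killer cell markers, with 0 called by limma in either list. At an unadjusted p under 0.05 there was 1 neutrophil marker at 1 month and 0 at 2 months, and 1 natural killer cell marker at each age. At that p 4.44% of all genes were higher and 4.86% lower at 1 month, and 6.01% and 9.12% at 2 months. The neutrophil marker Ltf was lower in all knockout hearts than in all dflox hearts at 1 month, where 9.27% of all genes were. The other neutrophil markers overlapped at both ages. Of the natural killer cell markers, Nkg7 was higher in all knockout hearts at both ages (2.91% of all genes) and Klrd1 at 2 months (7.06%). Their mean level ranged from −5.33 to −4.63 in dflox and from −4.54 to −4.15 in knockout hearts at 1 month. At 2 months it ranged from −4.34 to −3.72 and from −3.92 to −3.21. The part of neutrophils and natural killer cells in the Fc receptor values was not tested.

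The C1q chains form the recognition unit of the classical complement pathway, and macrophages are their main source in most tissues. C1qc stood at 3.15, 3.04 and 3.21 in dflox and 3.29, 3.29 and 3.34 in knockout hearts at 1 month, and at 2.84, 2.94 and 2.81 against 3.00, 3.15 and 3.26 at 2 months. Each knockout heart was higher than each dflox heart of its age. The differences were 0.18 (SE 0.10, adjusted p = 0.714) and 0.27 (SE 0.10, adjusted p = 0.236), and their average was 0.23 (SE 0.07, adjusted p = 0.117). C1qb, at 1.65, 1.75 and 2.02 in dflox and 1.97, 1.94 and 1.92 in knockout hearts at 1 month, overlapped between genotypes, with a difference of 0.14. At 2 months it stood at 1.51, 1.48 and 1.46 against 1.70, 1.50 and 2.07, a difference of 0.28. C1qa differed by 0.08 and 0.37, and none of the 3 chains passed at either age.

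Among lysosomal and phagosomal proteins, 5 of 6 were above 0 at 1 month and 6 of 6 at 2 months. Laptm5 encodes a lysosomal membrane protein of blood-derived cells. Its level was −1.98, −1.72 and −1.57 in dflox and −1.21, −1.60 and −1.28 in knockout hearts at 1 month, where 1 dflox and 1 knockout heart crossed. Later it was −1.81, −2.14 and −1.76 against −1.55, −1.59 and −1.31, with no overlap. The differences were 0.40 (SE 0.16, adjusted p = 0.44) and 0.42 (SE 0.16, adjusted p = 0.255). The other Laptm5 probe gave 0.31 at 1 month and 0.06 at 2 months. Cd68, the lysosomal glycoprotein used as a macrophage stain, stood at −0.79, −0.78 and −0.67 in dflox and −0.59, −0.50 and −0.41 in knockout hearts at 1 month and at −0.88, −0.85 and −0.64 against −0.74, −0.61 and −0.31 at 2 months. It did not overlap at 1 month and overlapped at 2 months, with differences of 0.25 and 0.24 that did not pass (adjusted p = 0.655 and 0.395).

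Lgals3, the gene of galectin-3, which activated macrophages secrete, was the lowest of the 32 at 1 month, at −0.32 (SE 0.35). Its knockout hearts stood at 0.32, 1.81 and 1.59 there and its dflox hearts at 1.20, 1.71 and 1.77, so replicate 1 set that difference. Without that heart it was 0.14. The remaining lysosomal members, the protease gene Ctss, the pore-forming Mpeg1 and the lysozyme gene Lyz2, differed by 0.23, 0.22 and 0.18 at 1 month and by 0.11, 0.20 and 0.08 at 2 months. Lyz2 is uncertain because its neighbour Lyz1 is nearly identical and could bind the same probe.

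Of the scavenger and clearance receptors, 5 of 7 were above 0 at each age. Mrc1 encodes the mannose receptor CD206 of resident tissue macrophages. It stood at 0.46, 0.63 and 0.51 in dflox and 0.69, 0.79 and 0.89 in knockout hearts at 1 month, and at 0.08, 0.25 and 0.20 against 0.52, 0.87 and 0.45 at 2 months. There was no overlap at either age. The differences were 0.26 (SE 0.13, adjusted p = 0.605) and 0.44 (SE 0.13, adjusted p = 0.13), and the average of 0.35 (SE 0.09) missed the threshold with an adjusted p of 0.0582. It passed with quantile normalization (adjusted p = 0.0414) and without knockout 2-month replicate 3 (0.0379).

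Msr1, the class A scavenger receptor for modified lipoproteins, stood at −2.51, −2.39 and −2.41 in dflox and −2.23, −2.47 and −2.07 in knockout hearts at 1 month. In the older hearts it stood at −2.73, −3.06 and −2.81 against −2.32, −2.58 and −2.53, where the genotypes did not overlap and the difference was 0.39 (SE 0.13, adjusted p = 0.208). Cd163, the haemoglobin scavenger receptor, and Mertk, a receptor for dying cells, were below 0 at both ages, at −0.06 and −0.11 for Cd163 (SE 0.24) and at −0.23 and −0.06 for Mertk (SE 0.16). Neither passed.

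The resident markers Lyve1, Timd4 and Folr2 and the recruited marker Ccr2 were set side by side over the 4 groups. The genotypes overlapped in Lyve1, Folr2 and Ccr2 at both ages and in Timd4 as well, and none of the 4 genes passed the test by genotype or by age.

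Lyve1 encodes a hyaluronan receptor of resident macrophages that lymphatic endothelium also carries. Its level was 1.34, 1.59 and 1.22 in dflox and 1.46, 1.42 and 1.38 in knockout hearts at 1 month, and 0.93, 1.05 and 1.30 against 1.62, 0.79 and 0.88 at 2 months. The genotypes differed by 0.03 at the earlier and 0.00 at the later age (SE 0.21), and the sign turned with the mean over probes or with place as a covariate. In order of group mean, knockout and dflox hearts at 1 month (1.42 and 1.39) stood above knockout and dflox hearts at 2 months (1.10 and 1.09), and no neighbours in that order differed beyond their spread. The change from 1 to 2 months was −0.30 in dflox (SE 0.21, adjusted p = 0.542) and −0.32 in knockout hearts (adjusted p = 0.61). Lymphatic endothelium markers, a list of 6 that includes Lyve1, had a mean level between −1.29 and −1.05 in every heart.

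Timd4 encodes TIM-4, a receptor for phosphatidylserine on dying cells that marks long-lived resident macrophages. It stood at −3.29, −3.19 and −2.84 in dflox and −2.54, −2.88 and −2.56 in knockout hearts at 1 month, where the lowest knockout heart fell just below the highest dflox heart. At 2 months it stood at −2.39, −2.71 and −2.71 against −2.50, −2.83 and −2.11. The genotype difference was 0.44 at 1 month (SE 0.20, adjusted p = 0.529) and 0.13 at 2 months (adjusted p = 0.759), and the latter turned to −0.06 without knockout 2-month replicate 3. The order of group means was dflox at 1 month (−3.10), knockout at 1 month (−2.66), dflox at 2 months (−2.60) and knockout at 2 months (−2.48), of which the last 3 overlapped. From 1 to 2 months Timd4 differed by 0.50 in dflox (SE 0.20, adjusted p = 0.299) and by 0.18 in knockout hearts (adjusted p = 0.813).

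Folr2, a folate receptor of perivascular resident macrophages, stood at 1.60, 1.56 and 2.06 in dflox and 1.66, 2.01 and 1.98 in knockout hearts at 1 month, and at 1.76, 1.78 and 1.79 against 1.77, 2.00 and 2.16 at 2 months. The differences were 0.14 and 0.19 (SE 0.16, adjusted p = 0.988 and 0.571). Its 4 group means lay between 1.74 and 1.97, and no neighbours in their order differed beyond their spread. With age it changed by 0.04 in dflox and 0.09 in knockout hearts.

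Ccr2, which guides monocytes out of the bone marrow and into tissue, stood at −2.84, −2.40 and −2.97 in dflox and −2.67, −2.60 and −2.60 in knockout hearts at 1 month, and at −2.35, −2.36 and −1.90 against −2.41, −2.20 and −2.42 at 2 months. The genotype difference was 0.11 at 1 month and −0.14 at 2 months (SE 0.17, adjusted p = 1 and 0.695). The order of group means was dflox at 1 month (−2.74), knockout at 1 month (−2.63), knockout at 2 months (−2.34) and dflox at 2 months (−2.20). The age difference was 0.53 in dflox (SE 0.17, adjusted p = 0.198) and 0.28 in knockout hearts (adjusted p = 0.573), and it passed in neither. The nearest dflox hearts of the 2 ages stood at −2.36 and −2.40. Over 10 markers of blood monocytes, the median genotype difference was −0.07 at 1 month and 0.25 at 2 months, and limma called 0 of them, with 0 and 1 at an unadjusted p under 0.05. At that p 6.01% of all genes were higher and 9.12% lower in knockout hearts at 2 months. Whole-heart RNA does not tell which cells gave the transcripts of this list, so its median is not a count of monocytes.

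**Figure D3:**
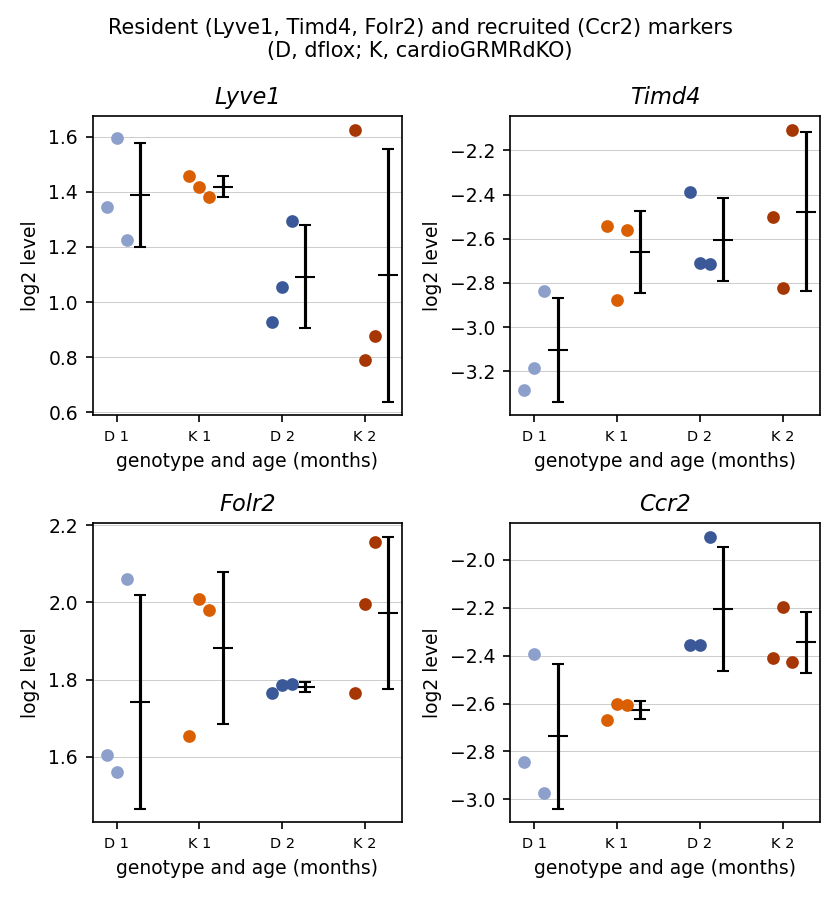
Log2 level per heart (points, 3 per group) of the resident markers Lyve1, Timd4 and Folr2 and of the recruited marker Ccr2 in dflox (D) and cardioGRMRdKO (K) hearts at 1 and 2 months, with group mean and SD. Points of the genotypes overlap at each age in all 4 genes. Ccr2 lies between −2.42 and −1.90 in the 6 hearts at 2 months and between −2.97 and −2.40 in the 6 at 1 month. Its age difference passed the test in neither genotype.

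The growth factor receptor Csf1r, on whose signal most tissue macrophages depend, stood at 1.55, 1.98 and 2.11 in dflox and 1.95, 2.19 and 2.12 in knockout hearts at 1 month, and at 1.68, 1.60 and 1.85 against 1.91, 1.85 and 2.40 at 2 months. The differences were 0.21 and 0.34 (SE 0.18, adjusted p = 0.938 and 0.402), and its other 2 probes read −0.19 and −0.05 at the earlier and −0.22 and 0.22 at the later age. Cx3cr1, the fractalkine receptor, had the largest differences of the 32 at both ages and the widest spread. It stood at −2.20, −1.94 and −1.52 in dflox and −0.79, −1.69 and −1.68 in knockout hearts at 1 month, and at −2.00, −1.93 and −2.92 against −2.28, −1.90 and −1.06 at 2 months. The differences of 0.50 and 0.54 (SE 0.38, adjusted p = 0.882 and 0.517) fell to 0.20 without knockout replicate 1 at 1 month, and to 0.20 without knockout replicate 3 or 0.22 without dflox replicate 3 at 2 months. Its dimmer probe gave −0.01 and −0.62.

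Leukocyte surface and signalling proteins were above 0 in 6 of 6 at each age by the probes that represent them. Aif1 encodes IBA1, an actin-bundling protein of macrophages and microglia. It stood at 1.18, 1.28 and 1.16 in dflox and 1.69, 1.39 and 1.69 in knockout hearts at 1 month, and at 0.88, 1.00 and 1.11 against 1.11, 1.26 and 1.11 at 2 months. There was no overlap at 1 month (0.39, SE 0.11, adjusted p = 0.218) and at 2 months the highest dflox heart (1.107) lay just under the lowest knockout heart (1.11; difference 0.17, adjusted p = 0.504). Cd53, a tetraspanin of white blood cells, stood at −2.48, −2.18 and −1.91 in dflox and −1.87, −2.07 and −2.06 in knockout hearts at 1 month and at −1.83, −2.00 and −2.29 against −1.81, −1.71 and −1.44 at 2 months, without overlap at the later age (0.38, SE 0.17, adjusted p = 0.335).

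The other 4 of that group, Ptprc (CD45), the integrin genes Itgam and Itgb2 and Adgre1 (F4/80), differed by 0.06 to 0.24 at 1 month and by 0.13 to 0.38 at 2 months without passing. Dimmer second probes read −0.14 and 0.31 for Adgre1, 0.09 and −0.13 for Itgam and 0.40 and 1.11 for Ptprc. Of the lipopolysaccharide-sensing genes, Cd14 differed by 0.09 and 0.14. Its levels were 0.06, 0.30 and 0.49 in dflox and 0.34, 0.44 and 0.33 in knockout hearts at 1 month and 0.47, 0.16 and 0.58 against 0.40, 0.37 and 0.86 at 2 months. Ly86, which encodes MD-1, a partner of a receptor related to the toll-like receptors, stood at 0.84, 1.22 and 0.74 against 1.20, 1.11 and 1.23 at 1 month and at 0.86, 1.09 and 1.05 against 0.90, 1.03 and 0.96 at 2 months. Genotypes overlapped in both genes at both ages.

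The genotype difference at 2 months was set against that at 1 month as an interaction. The median over the 32 markers was 0.01 and 16 of 32 were above 0. Limma called 0 of 32 markers, as it called 0% of all genes (0 of 18258), and 0 markers reached an unadjusted p under 0.05. The largest interaction was that of Lgals3, at 0.63 (SE 0.50, adjusted p = 0.951).

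From 1 to 2 months the markers moved little in either genotype, with a median of −0.14 in dflox and −0.07 in knockout hearts, against 0.04 and −0.02 over all genes. The dflox median was −0.08 and −0.05 without 1-month dflox replicate 2 or 3, and −0.05 without 2-month dflox replicate 2. The knockout median ran from −0.14 (without 2-month knockout replicate 3) to −0.02 (without 2-month knockout replicate 1), and leaving out any of the 6 knockout hearts moved it by over 1.5 times. Limma called 0 of 32 in dflox hearts, where 0.635% of all genes were called, and 0 of 32 in knockout hearts, where 0.351% were. At an unadjusted p under 0.05 there were 6 markers in dflox hearts. Of these, Fcgr1 (−0.38), Mrc1 (−0.36), C1qc (−0.27) and Msr1 (−0.43) were lower at 2 months (4 of 32, where 6.35% of all genes were), and Ccr2 (0.53) and Timd4 (0.50) were higher (2 of 32, where 7.61% were). In knockout hearts Aif1 (−0.43), Fcgr1 (−0.26) and Trem2 (−0.36) were lower (3 of 32, where 7.32% were). As shares of the 32 these were 12.5%, 6.25% and 9.38%, from 2 to 4 genes each.

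MHC class II genes, through which macrophages and dendritic cells present antigen, moved apart from the markers over this month. All 7 were higher at 2 months in both genotypes, with medians of 1.38 in dflox and 1.37 in knockout hearts, and H2-Aa rose by 1.49 in dflox (SE 0.27, adjusted p = 0.0425) and by 1.60 in knockout hearts (adjusted p = 0.0417). H2-DMb1, a chain of the chaperone that loads peptides, rose by 0.91 and 0.98 (adjusted p = 0.0285 and 0.0324), and H2-Ab1 rose by 1.47 in dflox hearts (adjusted p = 0.0389) and differed by 1.37 in knockout hearts (adjusted p = 0.0605). These 5 calls held in 2 to 6 of 12 fits without 1 heart and in 3 to 5 of 10 other settings, with adjusted p up to 0.191. Their median difference between genotypes was 0.15 at 1 month and 0.12 at 2 months, with 0 called and 0 at an unadjusted p under 0.05.

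**Figure D4:**
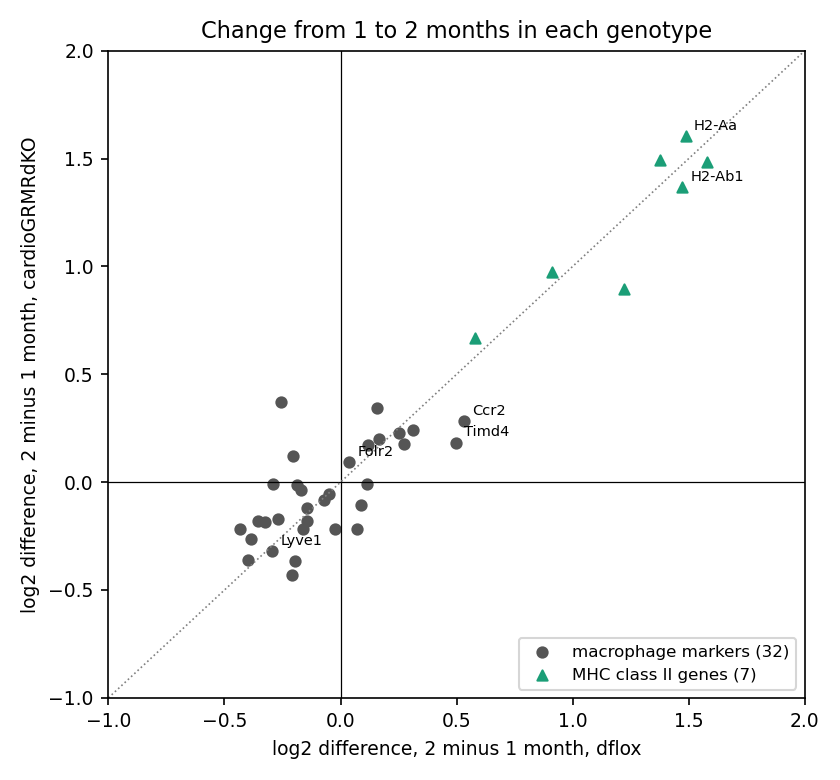
Log2 difference of 2 months minus 1 month in dflox (horizontal) and in cardioGRMRdKO hearts (vertical) for the 32 macrophage markers (circles) and 7 MHC class II genes (triangles), with a dotted line where both are equal. The markers lie between −0.43 and 0.53 on both axes, while the MHC class II genes lie at 0.58 to 1.60.

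Other genes of macrophage biology were read from fixed lists, which were drawn up with earlier results of these data known. Of all genes, 4.37% were called in the average over the ages and 2.23% at 2 months, in either direction. Of 16 measured growth factor and chemokine ligand genes, 12 were above 0 in the average over the ages, with 1 risen and 0 fallen. That gene was Cx3cl1, which encodes fractalkine, the ligand of the Cx3cr1 receptor and a product of endothelium and other tissue cells. It stood at 0.52, 0.17 and 0.20 in dflox and 0.62, 0.67 and 0.64 in knockout hearts at 1 month, and at 0.93, 1.13 and 0.65 against 1.31, 1.44 and 1.60 at 2 months. Each knockout heart was above each dflox heart of its age, and Cx3cl1 rose by 0.45 (SE 0.10, adjusted p = 0.0368). The call held in 3 of 12 fits that left out a heart, with adjusted p from 0.0292 to 0.102, and in 4 of 10 other settings. Among the settings that lost it was the fit without slide 3, which kept only 1 dflox heart at 2 months.

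Of 12 macrophage transcription factors 1 rose and 1 fell. Spi1, which encodes PU.1, the factor on which the macrophage lineage rests, was dim, at −5.67, −5.43 and −4.72 in dflox and −4.47, −4.18 and −4.48 in knockout hearts at 1 month and at −5.15, −5.33 and −5.31 against −4.97, −4.84 and −4.12 at 2 months. It rose by 0.76 (SE 0.19, adjusted p = 0.0489) in the average, with no overlap at either age and 1 dflox array at 1 month not well above background. With normexp background correction its difference was 0.06 (adjusted p = 0.744), and 2 of 12 fits without 1 heart (adjusted p up to 0.124) and 1 of 9 other settings kept the call. Cebpb, a factor of inflammatory gene induction that many cell types express, was lower in knockout hearts. It stood at 3.54, 3.68 and 3.71 in dflox and 2.99, 2.96 and 2.79 in knockout hearts at 1 month, and at 2.91, 3.21 and 3.55 against 2.73, 2.61 and 2.65 at 2 months. Cebpb fell by 0.65 (SE 0.11, adjusted p = 0.00617), without overlap at either age, and kept the call in 12 of 12 fits without 1 heart. The call was lost with place as a covariate (−0.49, adjusted p = 0.172) and without slide 3 (−0.49, with only 1 dflox heart left at 2 months).

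Of 9 toll-like receptor and adaptor genes 1 rose, Tlr2, the receptor for bacterial lipoproteins. It stood at −0.01, 0.13 and −0.04 in dflox and 0.32, 0.29 and 0.43 in knockout hearts at 1 month, and at −0.15, −0.22 and −0.14 against 0.36, 0.53 and 0.16 at 2 months, without overlap. It rose by 0.52 at 2 months (SE 0.11, adjusted p = 0.0399), a call that 1 of 12 fits without 1 heart kept (adjusted p from 0.0198 to 0.143), and by 0.42 in the average (SE 0.08, adjusted p = 0.0126), which 12 of 12 kept. The averaged call was lost with normexp background correction (0.34, adjusted p = 0.0808), with place as a covariate (0.32, adjusted p = 0.257) and without slide 3 (0.37, with only 1 dflox heart left at 2 months). The call at 2 months held in 4 of 11 other settings.

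Of 6 genes of the phagocyte oxidase, the enzyme of the respiratory burst, 6 were above 0 in the average and 1 rose, Ncf1, its p47phox subunit. Ncf1 stood at −4.02, −3.78 and −3.52 in dflox and −3.27, −3.40 and −3.37 in knockout hearts at 1 month and at −3.77, −3.95 and −3.89 against −3.32, −3.51 and −3.11 at 2 months. It rose by 0.49 (SE 0.10, adjusted p = 0.0232), kept the call in 5 of 12 fits without 1 heart (adjusted p up to 0.061), and in 6 of 10 other settings, and gave 0.14 with normexp background correction (adjusted p = 0.495). Of 8 inflammatory cytokine and inflammasome genes, 3 were above 0 and limma called 0, with 1 at an unadjusted p under 0.05: Pycard, the inflammasome adaptor, at −0.25 (adjusted p = 0.176). Of 25 other myeloid genes 23 were above 0, with a median of 0.15 and 0 called (5 at an unadjusted p under 0.05). At that p 7.72% of all genes were higher and 9.55% lower in knockout hearts in the average. Ms4a7 and Gpr34, both carried by resident macrophages, differed by 0.31 and 0.32.

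**Figure D5:**
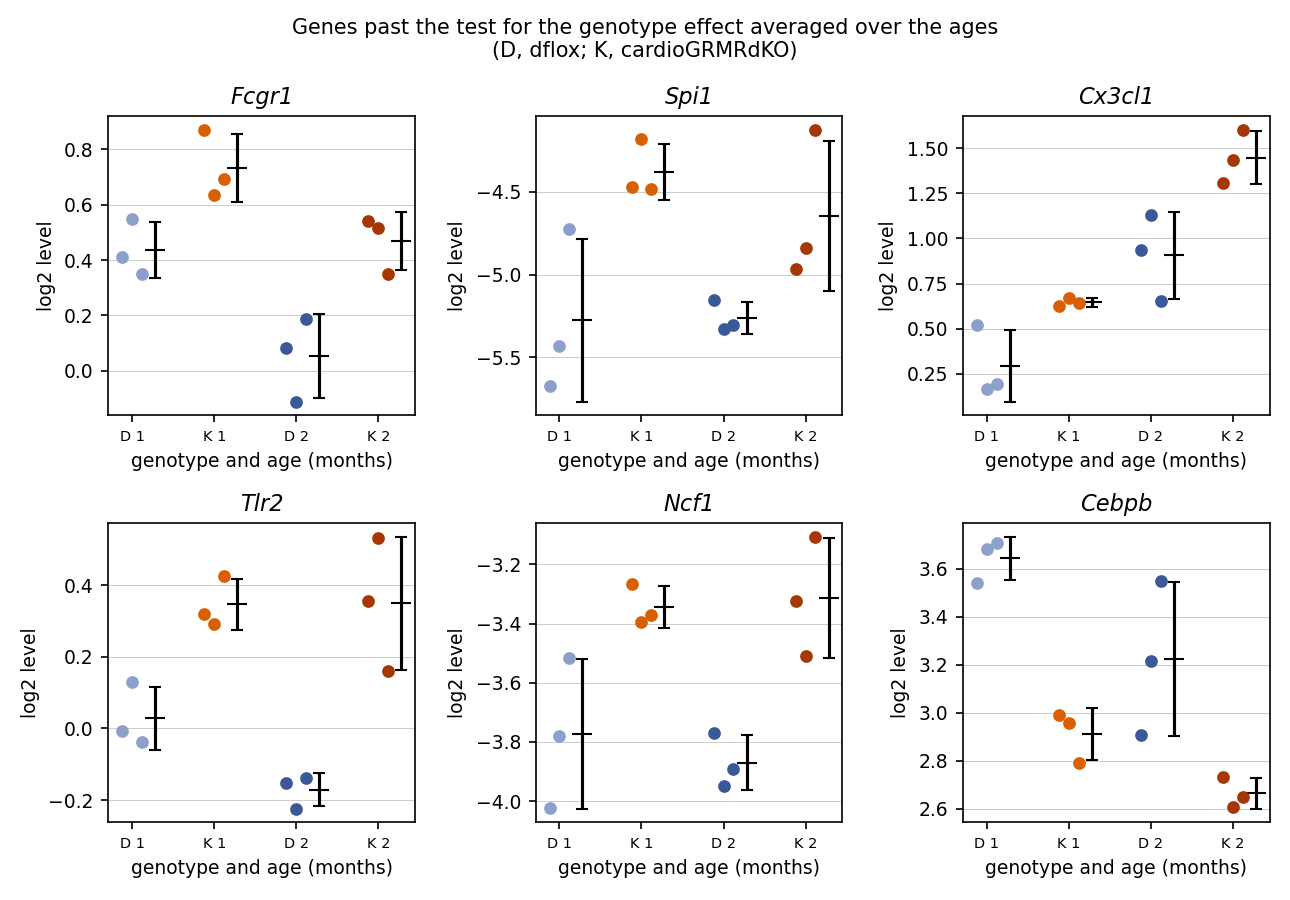
Log2 level per heart (points, 3 per group) of Fcgr1, Spi1, Cx3cl1, Tlr2, Ncf1 and Cebpb in dflox (D) and cardioGRMRdKO (K) hearts at 1 and 2 months, with group mean and SD, each panel on its own scale. The 6 genes were chosen because they passed the averaged genotype test in these same hearts. In all 6 the 3 knockout hearts of an age do not overlap the 3 dflox hearts of that age, and in Cebpb they are the lower ones. This separation follows in part from that choice and is no further support. Of all genes, 2.91% were higher in all knockout hearts at both ages.

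Markers of the main other cell types of the heart had median differences below 0. Over all genes the median was 0.00 at 1 month and −0.08 at 2 months. The median difference was −0.13 and −0.10 at 1 and 2 months over 10 endothelial markers, −0.17 and −0.05 over 9 fibroblast markers and −0.09 and −0.17 over 10 cardiomyocyte markers. Of the last, the calcium release channel gene Ryr2 fell by 0.37 in the average (SE 0.07, adjusted p = 0.0156). That call was lost without a filter on dim probes (0.051), with place as a covariate (0.0789) and without slide 3, where only 1 dflox heart was left at 2 months. With age, the collagen genes Col1a1 and Col1a2 of the fibroblast list fell in dflox hearts, by 1.24 and 0.76 (adjusted p = 0.00956 and 0.0234). In knockout hearts Col1a1 fell by 1.07 (adjusted p = 0.0257) and Col1a2 differed by −0.65 (adjusted p = 0.0548). These 3 calls held in 6 to 10 of 12 fits without 1 heart and in 4 to 8 of 10 other settings. Over 11 T cell markers the median genotype difference was 0.09 and 0.12, over 5 B cell markers 0.03 and −0.02, and over 6 mast cell markers −0.21 and −0.33. The mean level of 8 cardiomyocyte markers was 7.019 to 7.045 in dflox and 6.759 to 6.962 in knockout hearts at 1 month, without overlap. At 2 months it was 7.017 to 7.081 in dflox and 6.606 to 7.049 in knockout hearts, lowest in knockout replicate 3.

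Start sites of the markers were read for the core letters of sites bound by PU.1. RefSeq promoter windows (GRCm38.p6, the 250 bases before the start) were matched by symbol to 24 of the 32 markers. GAGGAA on either strand was found in 13 of the 24 (54.2%) and in 25.9% of 27025 genes with such a window. The longer GAGGAAG, which contains the first, was in 7 of 24 (29.2%) and in 12% of genes, and GAGGAAGT in 1 of 24 and in 2.79%. AGGAAGT, which overlaps them, was in 7 of 24 and in 8.8%. A match is a description of the sequence and not a bound site. Fcgr3, Itgam, Laptm5 and Trem2, whose genotypes overlapped at 1 or both ages, were among those with GAGGAAG. Of the 5 markers whose genotypes did not overlap at either age, Aif1 had only the shorter GAGGAA, and Tyrobp was not among those with a match. A link of these letters to genotype was not tested. Those of the 5 with GAGGAAG in the window are shown 5′ to 3′ along the gene's strand, with each GAGGAA, here always in its reverse form TTCCTC, in capitals. They are Fcgr1 (chr3:96293970-96294219, minus strand, match 55 bases before the start), Mrc1 (chr2:14229164-14229413, plus, matches 180, 167 and 35 bases before) and C1qc (chr4:136892915-136893164, minus, 193 bases before).
Fcgr1: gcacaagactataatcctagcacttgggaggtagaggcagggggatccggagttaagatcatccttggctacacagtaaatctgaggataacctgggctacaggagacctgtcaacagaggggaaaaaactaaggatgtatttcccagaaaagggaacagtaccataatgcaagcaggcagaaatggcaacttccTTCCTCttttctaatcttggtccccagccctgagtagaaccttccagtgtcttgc
Mrc1: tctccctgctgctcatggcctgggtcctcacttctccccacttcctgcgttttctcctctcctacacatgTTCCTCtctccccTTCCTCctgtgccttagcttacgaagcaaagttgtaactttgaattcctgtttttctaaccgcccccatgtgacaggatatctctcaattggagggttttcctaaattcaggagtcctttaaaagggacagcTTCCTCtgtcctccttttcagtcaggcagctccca
C1qc: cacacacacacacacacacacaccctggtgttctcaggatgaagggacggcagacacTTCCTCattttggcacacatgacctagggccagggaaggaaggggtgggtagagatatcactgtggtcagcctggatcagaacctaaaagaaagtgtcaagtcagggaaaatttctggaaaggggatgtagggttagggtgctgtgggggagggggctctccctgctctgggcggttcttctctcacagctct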

How the data were processed

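Whole-heart RNA from 12 mice was measured on 12 arrays, 1 per heart. Per the labels, column-purified, DNase-treated total RNA was labelled with Cy3. Spots were quantified with Agilent Feature Extraction 9.5 per the submitters' processing notes (release 9.5.3.1 in the file headers). In the deposited scanner files each spot has a processed intensity, corrected for background within the array, and the deposited series matrix held the same intensity in 100% of 45018 spots per array. Control and outlier spots were left out here. Intensities were put on a log2 scale and the 75th percentile of the transcript spots of each array was subtracted. Of 41174 probes, 26979 were kept, those detected above background by the software on every array of some group. Gene symbols came from probe accessions through RefSeq (22951 probes), other accessions (47) or older symbols (3077), and otherwise from the file. The brightest passing probe represented a gene, which left 18258 genes.

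The group means were fitted with limma 3.58.1 (R 4.3.3; prior degrees of freedom 2.28, residual 8), two-sided, with Benjamini-Hochberg adjustment over all genes. For 3 hearts against 3, exact permutation p-values start at 0.10. The labels do not state that hearts are from separate litters, so p-values measure the spread between these hearts. The number of arrays limits the precision. The script was tested on simulated data.

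The members, the role groups and the other lists were chosen with earlier results of these data known. Values per heart are given for Lyve1, Timd4, Folr2, Ccr2, called members and up to 2 further members per role with the smallest p in the averaged comparison, and for Lgals3, which was added after its values were seen. Of the other lists, genes called by genotype or age are named, otherwise up to 2 with the smallest p in the averaged comparison (none for most lists of other cells). Replicate numbers were not treated as pairs in the chosen fit. Correlations of same-numbered deviations ran from −0.49 to 0.551, and 5 of 18 were over 0.1. The highest was between the genotypes at 2 months (replicate 2). With 3 hearts per group such correlations cannot exclude a pairing. Motif letters were counted with pandas 2.3.3 and figures drawn with matplotlib 3.10.9.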

Additional observations from a re-analysis of the deposited data

How the results depend on the processing

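Alternatives were another background correction (normexp), quantile normalization, other filters on dim probes, the mean over a gene's probes, slide, place, airway level or replicate number in the model, each age alone, leaving out slide 3 and leaving out each heart. The fit without slide 3 kept only 1 dflox heart at 2 months, so its values there rest on that heart. The median over the 32 markers stayed above 0 in all of them, from 0.15 to 0.30 at 1 month, 0.13 to 0.27 at 2 months and 0.18 to 0.28 averaged over the ages. With the mean over probes, 27 of 32 were above 0 at 1 month and 26 of 32 at 2 months. Of 14 markers with several passing probes, all probes had the same sign in 10 at each age. The markers called in the averaged comparison, 1 in the chosen fit, were 2 with quantile normalization and 0 without a filter, with slide, place or airway level in the model, with the replicate block and without slide 3, and 0 to 2 without single hearts. With the replicate block the averaged median was 0.22. The cause of these changes was not tested. The median interaction moved to −0.0851 with the airway level and ran from −0.0478 to 0.123 without single hearts, and the median age change in dflox moved to −0.0270 (mean over probes), −0.0196 (slide) and −0.0386 (airway).

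Signs turned in these genes. Lyve1 gave −0.0713 (mean over probes) and −0.0121 (place) at 1 month, −0.00339 (normexp), −0.00699 (mean over probes), −0.0747 (slide), −0.00943 (place) and −0.0672 (airway) at 2 months, and −0.0391 (mean over probes) and −0.0108 (place) averaged. Ccr2 averaged gave 0.0234 (quantile), 0.0200 (place), 0.0154 (airway) and 0.0349 (without slide 3). With the mean over probes Csf1r gave −0.0109 at 1 month and Cx3cr1 −0.0431 at 2 months. Without slide 3 Ly86 gave 0.0672 at 2 months and Folr2 −0.0331 with age in knockout hearts, and Spi1 gave −0.0241 at 2 months with normexp. Without single hearts the genotype difference of Lyve1 ran from −0.0511 to 0.134 at 1 month, −0.259 to 0.158 at 2 months and −0.114 to 0.0942 averaged, that of Ccr2 from −0.00686 to 0.282, −0.214 to 0.0112 and −0.0729 to 0.0714, that of Cd14 from −0.0253 to 0.192 at 1 month and −0.0132 to 0.231 at 2 months, and at 2 months that of Timd4 from −0.0575 to 0.302 and of Ly86 from −0.112 to 0.00338. With age Timd4 ran from −0.00161 to 0.358 in knockout hearts, and Folr2 from −0.0534 to 0.197 in dflox and −0.0220 to 0.195 in knockout hearts.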
